A study of Mus musculus with 10 samples.

Results

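Phospholipid transfer protein (Pltp) and 8 genes of cholesterol efflux and sterol sensing (Abca1, Abcg1, Nr1h2, Nr1h3, Apoe, Mylip, Srebf1 and Srebf2) were examined in LSK cells, the Lin- Sca1+ cKit+ stem and progenitor fraction of mouse bone marrow. The 9 genes were chosen by name from the 25078 genes of the count table, and all 9 belonged to the 18747 genes for which at least 1 library had a count. Pltp was selected on its lower level in CM/miR-126Δ/Δ mice in these same libraries. Its genotype difference is therefore given as a description, with no test.

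RNA was sequenced from 5 CM and 5 CM/miR-126Δ/Δ mice, 1 library per mouse. CM mice carry a conditional Cbfb-MYH11 knock-in allele, the fusion gene of inv(16) acute myeloid leukemia, together with Mx1-Cre. CM/miR-126Δ/Δ mice carry in addition floxed miR-126 alleles that the same Cre deletes. All 10 mice received poly(I:C), which switches on the interferon-driven Mx1-Cre, and were sampled 6 weeks later at the pre-leukemic stage, as young adults on a C57BL/6 background. Mx1-Cre acts in several interferon-responsive cell types and not in LSK cells alone, and no mice without Cbfb-MYH11 are part of the comparison. In each genotype 3 mice were female and 2 were male, as read from Xist and Y-linked transcripts, and mice with the same number had the same sex. Library totals were 23649233 to 33202086 counts in CM and 24141663 to 26615091 in CM/miR-126Δ/Δ.

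Cells rid themselves of cholesterol by handing it to lipoprotein particles. ABCA1 and ABCG1 are membrane pumps that load cholesterol and phospholipid onto these particles, apolipoprotein E is one of the acceptors, and PLTP, a secreted protein of the BPI/LBP family, moves phospholipid between them. Oxysterols switch on this program through the liver X receptors (LXR), encoded by Nr1h3 (LXRα) and Nr1h2 (LXRβ), and Pltp, Abca1, Abcg1, Apoe, Mylip and Srebf1 are known LXR targets. When sterol runs low, SREBP-2, encoded by Srebf2, instead turns on cholesterol synthesis and uptake, while SREBP-1, from Srebf1, drives fatty acid synthesis. In stem and progenitor cells the efflux pumps and ApoE are known as brakes on proliferation.

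The deleted microRNA and the microRNA gene that lies within Srebf2 are shown first, because the first separates the genotypes and the second is a known repressor of both efflux pumps. Capitals mark the seed, bases 2 to 8, in the RefSeq mature sequences (GRCm38.p6).
miR-126a-3p, chr2:26591402-26591423, plus strand: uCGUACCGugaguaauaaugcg
miR-33-5p, chr15:82198127-82198147, plus strand: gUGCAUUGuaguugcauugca
The sequence complementary to the miR-126a-3p seed, CGGTACG, was in none of the 9 genes' 3′ untranslated regions, and neither was its 6-base core, GGTACG. Among 9638 expressed genes, 0.259% held the longer match and 3.58% the shorter one. The opposite strand of the locus gives miR-126b, whose -5p seed match GTAATAA, present in 11% of the genes, was found once in Srebf1 and in no other of the 9, while its 6-base core was also in Nr1h2, Apoe and Mylip (42.7% of the genes). No match to miR-126b-3p was found. The -5p arm of miR-126a was not searched.
Srebf1, bases 536 to 564 of a 3′ untranslated region of 833 bases, match in capitals: ccctccaccagGTAATAAccccgtatatc
The complement of the miR-33-5p seed, CAATGCA, was found in 7.12% of the genes. It occurred at 3 places in Abca1 and 2 in Abcg1, clustered in the short stretches shown here with the matches in capitals, and in no other of the 9 genes.
Abca1, bases 131 to 160 of a 3′ untranslated region of 3156 bases: tattCAATGCAATGCActtCAATGCAacga
Abcg1, bases 711 to 739 of a 3′ untranslated region of 1492 bases: gcaacgCAATGCAacgCAATGCAgacagt
These are matches of letters and not measured binding. Counts of the Mir33 locus were 0 to 2 per library, so no level of miR-33 can be read from these libraries, which do not capture mature microRNAs.

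The labels were checked on the deleted gene. The Mir126a locus, which sits inside Egfl7, had 4, 5, 0, 2 and 3 counts across CM mice 1 to 5 but 0 in every CM/miR-126Δ/Δ mouse (0.0905 ± 0.0619 CPM, counts scaled to library size, against 0, SD, n = 5 each, exact permutation test, two-sided, p = 0.0476). With sign changes of same-numbered pairs the exact p was 0.125. That is the smallest p possible here, since mouse 3 had 0 counts in both genotypes. A count of 0 allows up to 3 counts, or 0.113 to 0.124 CPM in these 5 libraries, so the precursor counts alone are a weak check. The host gene Egfl7 stood at 114 ± 20.0 CPM in CM mice against 107 ± 12.2 CPM without miR-126 (exact permutation test, p = 0.516).

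Pltp, at chr2:164839518-164857708 (mm10, minus strand), was a low transcript in these cells. Its counts were 89, 59, 121, 62 and 90 for CM mice 1 to 5, against 42, 34, 34, 37 and 25 for CM/miR-126Δ/Δ mice 1 to 5. Scaled for library size, this was 2.69, 1.95, 4.95, 2.08 and 2.97 CPM for the CM mice, against 1.56, 1.37, 1.48, 1.46 and 1.03 CPM for the CM/miR-126Δ/Δ mice. All 5 CM/miR-126Δ/Δ mice were below all 5 CM mice, and the highest value was that of CM mouse 3. The mean was 2.93 ± 1.21 CPM for CM and 1.38 ± 0.207 CPM for CM/miR-126Δ/Δ (± SD over 5 mice each), and the fitted log2 fold change was -1.08 (SE 0.259), a level 2.11-fold higher in CM. Without CM mouse 3 the log2 fold change was -0.80. The coefficient of variation was 41.2% over the CM mice and 15% over the CM/miR-126Δ/Δ mice. Pltp was lower in the CM/miR-126Δ/Δ mouse of each same-numbered pair, by 0.51 to 1.74 on the log2 scale across the 5 pairs.

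A gene was counted as different when its unadjusted p was at most 0.01, its levels differed at least 1.5-fold and its mean RPKM (reads per kilobase of exon, scaled to library size) reached 1 in either genotype. Of all genes fitted, 54 (0.288%) met these 3 cutoffs, of which 18 (0.096%) were lower in CM/miR-126Δ/Δ. Pltp was 1 of the 18, and no other member met them. With the replicate number as a block 115 genes met them, and again none of the other 8. Since Pltp was chosen by this contrast, nothing can be read from that count about the group. The groups did not overlap for 161 of the 11682 genes that reached a mean RPKM of 1 (1.38%), and among the 9 members for Pltp alone. Pltp reached that level in CM only (1.62 against 0.765 in CM/miR-126Δ/Δ). As it was chosen by this contrast, its separation is a description and is not weighed against the 1.38%.

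Pltp overlaps a neighbour. The last part of Ctsa (plus strand), the gene of the lysosomal protease and galactosidase chaperone cathepsin A, covers 1515 bases of the Pltp locus, and whether strand was used in counting is not stated in the sources used here. Ctsa was much higher than Pltp, with a mean of 113 ± 4.22 CPM for CM and 100.1 ± 3.21 CPM for CM/miR-126Δ/Δ, with a log2 fold change of -0.17 (SE 0.0484, edgeR adjusted p = 0.612). Its 5 CM/miR-126Δ/Δ values, 96.0 to 105 CPM, lay below its 5 CM values, 108 to 118 CPM. Ctsa and Pltp thus differed in the same direction, and a share of reads passing between them was not tested. The other nearby genes had log2 fold changes of -0.10 (Neurl2), 0.00 (Pcif1) and -0.01 (Zfp335), and the sign of the last turned under another scaling of the libraries.

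The acceptor Apoe (chr7:19696244-19699188, mm10) came closest to Pltp among the other members. Its CPM were 80.4, 72.5, 74.5, 93.5 and 106 in CM mice 1 to 5, and 70.8, 77.8, 51.5, 78.2 and 49.8 in CM/miR-126Δ/Δ mice 1 to 5. The groups overlapped, although CM/miR-126Δ/Δ mice 3 and 5 were well under every CM mouse. The mean was 85.4 ± 14.3 CPM for CM and 65.6 ± 14.0 CPM for CM/miR-126Δ/Δ, with a log2 fold change of -0.38 (SE 0.139). The unadjusted p was 0.016 and the adjusted p over all genes 0.746 (edgeR quasi-likelihood test, Benjamini-Hochberg), so the difference did not pass adjustment over all genes. Leaving out single libraries gave an unadjusted edgeR p of 0.00873 to 0.064 and an adjusted p of at least 0.371. The CM/miR-126Δ/Δ mouse had the lower value in 4 of 5 same-numbered pairs. An unadjusted p under 0.05 was found for 1239 genes (6.61%), and of the 8 members other than Pltp for Apoe.

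**Figure D1:**
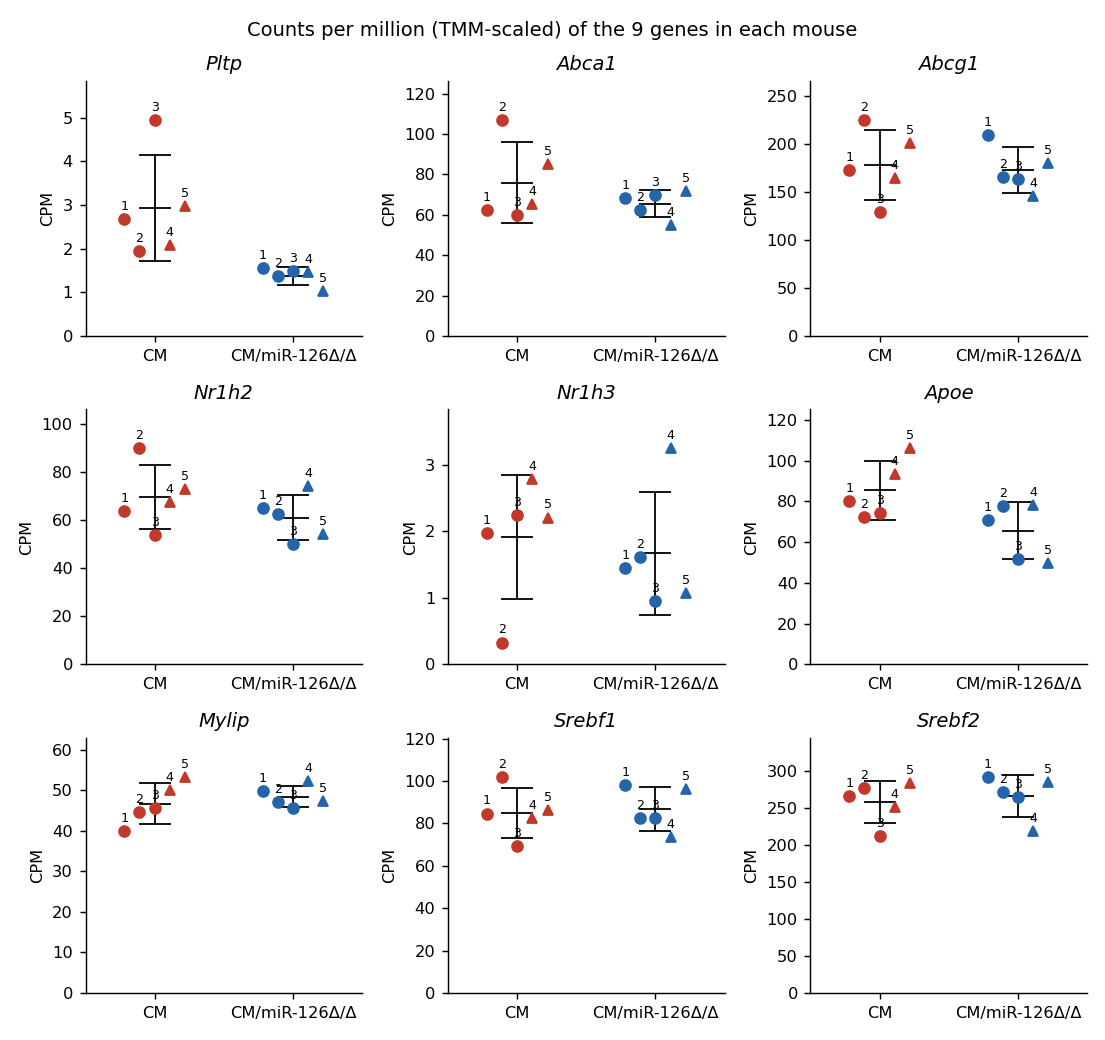
Library-scaled counts (CPM) of the 9 genes in each of 5 CM (red) and 5 CM/miR-126Δ/Δ (blue) mice, numbered by replicate, with circles for females, triangles for males and black bars for the mean ± SD. The genotypes separate for Pltp (1.03 to 1.56 against 1.95 to 4.95 CPM) and overlap for the other 8 genes, and CM mouse 2 is the highest for Abca1, Abcg1, Nr1h2 and Srebf1 and the lowest for Nr1h3.

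The efflux pumps were not distinguishable between genotypes. Abca1 (chr4:53030789-53159895) was at 62.2, 107, 60.0, 65.3 and 85.1 CPM for CM mice 1 to 5, against 68.3, 62.6, 69.7, 55.1 and 72.0 CPM for CM/miR-126Δ/Δ mice 1 to 5. The genotypes overlapped, with CM mice 2 and 5 above the rest. The log2 fold change was -0.21 (SE 0.141, edgeR adjusted p = 0.765), and without CM mouse 2 it was -0.06. Abcg1 (chr17:31057694-31117981) was at 129 to 225 CPM for CM (median 173) and 146 to 209 CPM for CM/miR-126Δ/Δ (median 166), with a log2 fold change of -0.05 (SE 0.13, edgeR adjusted p = 0.948), whose sign turned when single libraries were left out. Its counts were high, at 3151 to 6823 per library.

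Nor did either liver X receptor differ beyond replicate error. LXRβ (Nr1h2, chr7:44549616-44553965) was the main form in these cells, at 69.5 ± 13.3 CPM for CM and 61.0 ± 9.39 CPM for CM/miR-126Δ/Δ, with a log2 fold change of -0.19 (SE 0.126, edgeR adjusted p = 0.765). It was -0.08 without CM mouse 2 and -0.25 without CM mouse 3, where the unadjusted p fell under 0.05 and the edgeR adjusted p was 0.608. With the replicate number as a block it was -0.18 (edgeR adjusted p = 0.603). LXRα (Nr1h3, chr2:91184061-91195116) was rare, with counts of 65, 10, 55, 83 and 67 for CM mice 1 to 5, against 39, 40, 22, 82 and 26 for CM/miR-126Δ/Δ mice 1 to 5. In CPM this was 1.97, 0.33, 2.25, 2.79 and 2.21 in CM and 1.45, 1.61, 0.958, 3.25 and 1.07 in CM/miR-126Δ/Δ. CM mouse 2 was the lowest of the 10 mice and CM/miR-126Δ/Δ mouse 4 the highest, so that the extremes ran against the order of the means. The log2 fold change was -0.19 (SE 0.442, edgeR adjusted p = 0.933). Without CM mouse 2 it was -0.46, without CM mouse 4 it was 0.00 and without CM/miR-126Δ/Δ mouse 4 it was -0.56, and the edgeR adjusted p was at least 0.659 in each of the 10 fits that left out 1 library.

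The remaining members were close between genotypes. Mylip (chr13:45389742-45411940), the ubiquitin ligase IDOL that marks the LDL receptor for breakdown, was at 40.0 to 53.3 CPM for CM and 45.7 to 52.3 CPM for CM/miR-126Δ/Δ, with a log2 fold change of 0.05 (SE 0.0757, edgeR adjusted p = 0.884). Srebf1 (chr11:60199084-60222581) was at 69.4 to 102 CPM for CM and 73.8 to 98.2 CPM for CM/miR-126Δ/Δ, with a log2 fold change of 0.03 (SE 0.0975, edgeR adjusted p = 0.967). Srebf2 (chr15:82147269-82204960) was at 212 to 284 CPM for CM and 219 to 292 CPM for CM/miR-126Δ/Δ, with a log2 fold change of 0.05 (SE 0.0918, edgeR adjusted p = 0.926). Leaving out single libraries turned the sign for both SREBP genes, whose log2 fold changes were then at most 0.12.

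Over the 8 members other than Pltp, 5 estimates were lower and 3 higher in CM/miR-126Δ/Δ, with a median log2 fold change of -0.12 against -0.02 over all genes that reached a mean RPKM of 1. None of the 8 had an adjusted p under 0.05 in the edgeR fit, a level that 2 of all genes reached (0.0107%), and 1, Apoe, had an unadjusted p under 0.05, against 6.61% of all genes. With DESeq2 45 of all genes passed an adjusted p of 0.05, and none of the 8 did.

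The genotype difference was also compared between sexes. The interaction of genotype with sex passed an adjusted p of 0.05 for 1 gene of those fitted (0.00533%), which was no member. The lowest unadjusted p among the members was that of Apoe, whose log2 fold change was lower by 0.46 in males than in females (interaction -0.46, SE 0.252, edgeR adjusted p = 0.9999). With 2 males per genotype, such differences are estimated with wide error.

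**Figure D2:**
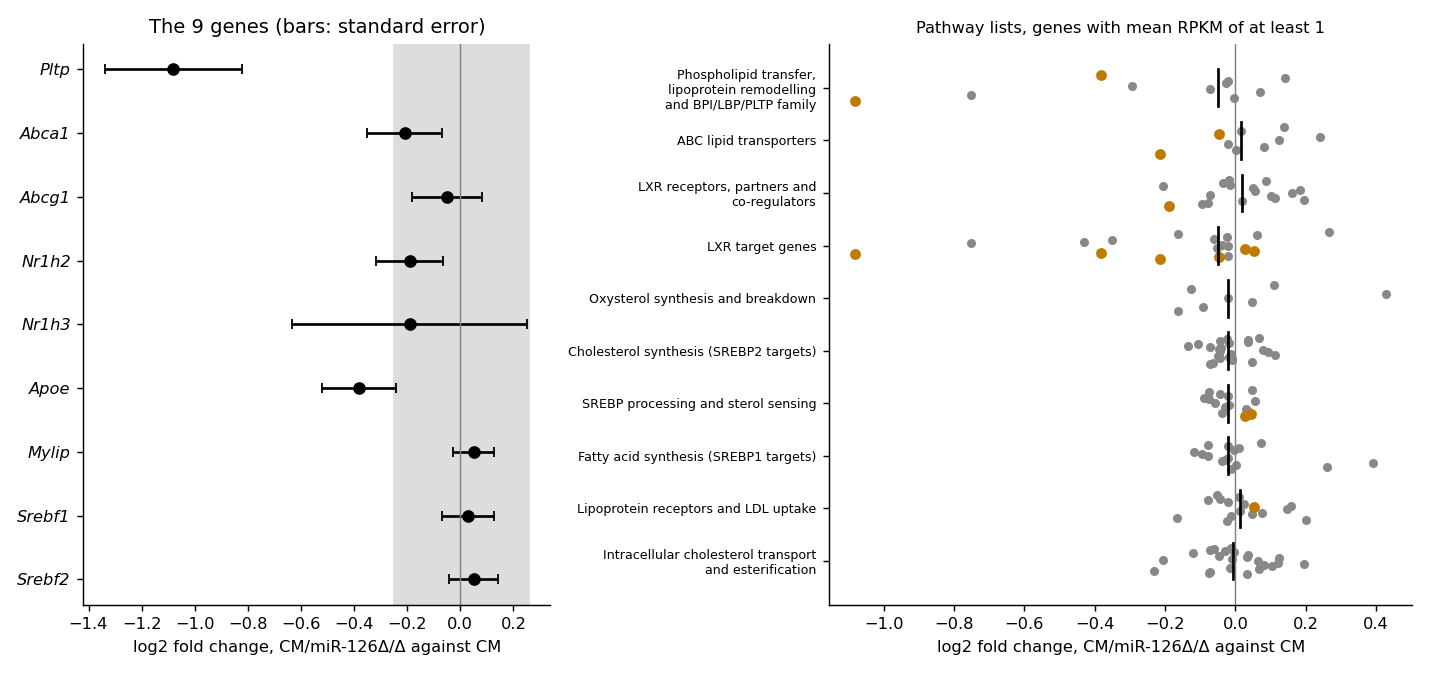
Left, log2 fold change of each of the 9 genes in CM/miR-126Δ/Δ against CM with its standard error, over a grey band that holds the middle of all genes that reached a mean RPKM of 1, from their 5th to their 95th percentile (-0.25 to 0.26). Right, log2 fold changes of the genes of 10 pathway lists (grey, the 9 genes in orange, black line the median), drawn for genes that reached a mean RPKM of 1. Pltp, chosen for this difference, lies at -1.08, and the medians of the genes drawn run from -0.05 to 0.02.

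The 10 lists of genes around this pathway held 180 distinct genes, of which 177 had counts and 168 were not among the 9. None of the 168 met the 3 cutoffs and none had an adjusted p under 0.05. At an unadjusted p under 0.05 there were 7 higher and 2 lower in CM/miR-126Δ/Δ, or 5.36% of the 168, against 6.61% of all genes, and their median log2 fold change was -0.02.

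In the list of phospholipid transfer and lipoprotein remodelling, 21 genes other than Pltp had counts. At an unadjusted p under 0.05, 0 of them were higher and 2 lower, where 6.61% of all genes had such a p. The 2 were the member Apoe and Angptl4, an inhibitor of lipoprotein lipase (log2 fold change -0.29, SE 0.114, edgeR adjusted p = 0.746). Its target Lpl, named here after its values were seen, was at 16.3 ± 10.2 CPM for CM and 9.65 ± 3.69 CPM for CM/miR-126Δ/Δ, with a log2 fold change of -0.75 and an SE of 0.448 (adjusted p = 0.765). Of the BPI/LBP family, Lbp (71.2 ± 6.65 against 71.0 ± 9.32 CPM) did not separate (log2 fold change 0.00, SE 0.0899). Bpi was at or under 3 counts in the mean (0.0672 against 0.098 CPM), so that no fold is given. Of 12 ABC lipid transporters with counts, none had an unadjusted p under 0.05. The most abundant, Abca2, was at 299 CPM in both genotypes (log2 fold change 0.00, SE 0.0863), and Abcb4, a phospholipid exporter, was at 23.4 ± 8.41 and 27.7 ± 3.89 CPM (0.24, edgeR adjusted p = 0.765). Without CM mouse 3, the highest CM mouse for Abcb4, its log2 fold change was 0.50 (edgeR unadjusted p = 0.000797, adjusted p = 0.207), short of the fold cutoff.

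Of the 20 LXR receptors, partners and co-regulators, none had an unadjusted p under 0.05. Gps2, a subunit of a nuclear corepressor complex, had a log2 fold change of -0.21 (SE 0.0989, edgeR adjusted p = 0.764). The coactivator Crebbp, the most abundant of the list per length, had a log2 fold change of 0.18 (SE 0.0933). Of the 24 LXR target genes with counts other than Pltp, 1 was higher (Ttc39b, 0.27, edgeR adjusted p = 0.746) and 1 lower (Apoe) at an unadjusted p under 0.05. Of these 24, 19 had lower estimates in CM/miR-126Δ/Δ. The share of all genes fitted with lower estimates is not given here, so 19 of 24 is not weighed against a background. Over all genes fitted the median lay close to 0 (-0.01). Some of the 24 had nearly no counts, such as Apoc2 (0.0148 and 0 CPM). The median log2 fold change of the 24 was -0.11. Over the 17 that reached a mean RPKM of 1 it was -0.05, against -0.02 over all such genes. The desaturase Scd2, an LXR target and the highest of the list per length, was at 467 ± 88.4 and 461 ± 84.6 CPM. TTC39B is known to act on LXR protein stability.

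Enzymes of sterol and fatty acid synthesis lay near 0. None of the 26 cholesterol synthesis genes and none of the 15 SREBP processing genes had an unadjusted p under 0.05, with median log2 fold changes of -0.02 for both lists. The sterol reductase Lbr (409 against 396 CPM), squalene synthase Fdft1 (0.11, SE 0.113) and the sterol isomerase Ebp (-0.10, SE 0.0831) included the most abundant gene of this list and those of lowest p in each direction. Rnf145 (0.06), a ubiquitin ligase of the sterol-sensing machinery, lay as close to 0. In fatty acid synthesis, Acss2, which makes acetyl-CoA from acetate, was at 35.1 ± 2.24 CPM for CM and 42.1 ± 4.77 CPM for CM/miR-126Δ/Δ (log2 fold change 0.26, SE 0.0824, unadjusted p = 0.00672, edgeR adjusted p = 0.661). It fell short of the fold cutoff, as did Acacb (0.39, SE 0.146). The elongase Elovl6 had a log2 fold change of -0.12 (SE 0.0818).

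Oxysterols, the ligands of LXR, are made and degraded by enzymes that were mostly rare. Cyp11a1, the side-chain cleavage enzyme, was at 2.87 ± 0.515 CPM for CM and 3.87 ± 0.351 CPM for CM/miR-126Δ/Δ (log2 fold change 0.43, SE 0.163, edgeR adjusted p = 0.746). Ch25h, the cholesterol 25-hydroxylase, had nearly no counts (0.0066 and 0.0557 CPM), and no fold is given for it. Hsd3b7 (63.6 and 62.6 CPM) was the most abundant of this list. Ebi3 (-0.13), which the list also holds, encodes a cytokine subunit and is no oxysterol gene. Among uptake receptors, Lrp10 was at 124 ± 4.66 and 125 ± 11.7 CPM, the adaptor Dab2 at 1.19 ± 0.313 and 0.84 ± 0.171 CPM (edgeR adjusted p = 0.764), and Lrp2 was near 0. In intracellular transport, the late endosomal sterol carrier Stard3 was at 25.3 ± 0.653 and 21.6 ± 2.06 CPM (-0.23, SE 0.0807, edgeR adjusted p = 0.727), Osbpl5 gave 0.20 (SE 0.0856) and the lysosomal membrane protein Lamp1 -0.12 (SE 0.0726).

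Levels were next compared between genes, per length. By mean RPKM over the 10 libraries the order was Srebf2 (57.4), Apoe (47.6), Nr1h2 (32.3), Abcg1 (30.2), Srebf1 (19.0), Mylip (15.9), Abca1 (6.9), Pltp (1.19) and Nr1h3 (0.879). LSK cells of both genotypes thus held abundant transcripts of SREBP-2, ApoE, LXRβ and ABCG1 and little of Pltp and LXRα. In CM/miR-126Δ/Δ alone the last 2 stood the other way round, with mean RPKM of 0.765 for Pltp and 0.819 for Nr1h3. Pltp was above 39.7% of all genes and Nr1h3 above 37.5%, where Srebf2 was above 95.6%.

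Neighbours in this order were compared within libraries on the scale of log2 RPKM, by exact paired permutation tests adjusted over 8 pairs. Srebf2 and Apoe did not differ beyond their spread (higher Srebf2 in 6 of 10 libraries, exact adjusted p = 0.0521), nor did Nr1h2 and Abcg1 (7 of 10, exact adjusted p = 0.246) or Pltp and Nr1h3 (7 of 10, exact adjusted p = 0.15). Srebf1 was above Mylip in 9 of 10 libraries (exact adjusted p = 0.0156). The other 4 neighbours kept their order in all 10 libraries, with an exact adjusted p of 0.00391 that rests on the smallest p such a test can give, 0.00195. The widest step was from Abca1 to Pltp, 2.54 ± 0.673 log2 units (SD, n = 10).

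**Figure D3:**
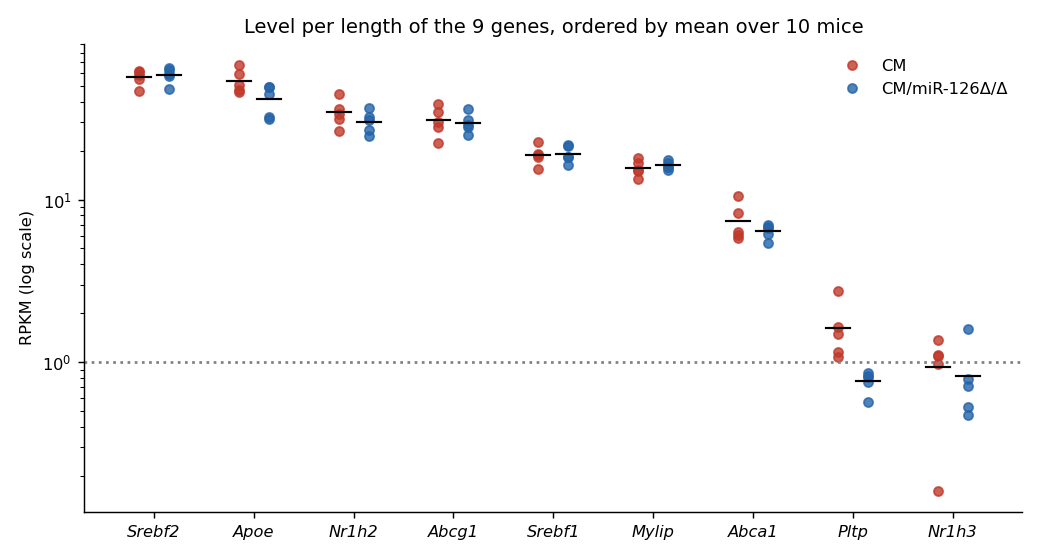
RPKM of the 9 genes (log scale) in each CM (red) and CM/miR-126Δ/Δ (blue) mouse, with lines at the group means and a dotted line at an RPKM of 1. Srebf2 is highest with a mean of 57.4 and Nr1h3 lowest with 0.879, and Pltp lies above 1 in all CM mice (1.08 to 2.74) and below it in all CM/miR-126Δ/Δ mice (0.57 to 0.862).

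Members were then compared for how they varied from mouse to mouse. Each gene's log2 CPM was taken as the deviation from its genotype mean over the 10 libraries, and all 36 pairs of members were correlated, with exact permutations within genotype and adjustment over the 36. All points share libraries, so that depth and cell makeup act on both genes of a pair.

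Abcg1, Srebf1 and Srebf2 correlated with one another. For Abcg1 and Srebf1, r was 0.943 (exact permutation adjusted p = 0.0025) and rho 0.952 (exact permutation adjusted p = 0.0025). For Abcg1 and Srebf2, r was 0.894 (exact permutation adjusted p = 0.00375) and rho 0.939 (adjusted p = 0.015, exact permutation). For Srebf1 and Srebf2, r was 0.879 (exact permutation adjusted p = 0.0175) and rho 0.867 (adjusted p = 0.0267, exact permutation). Leaving out CM mice 2 and 3, the 2 farthest, gave r of 0.872, 0.882 and 0.873. Within the 6 females, which include both of these mice, r was 0.999, 0.942 and 0.933, and the 4 males were too few. Abca1 joined with Srebf1 by r of 0.806 (exact permutation adjusted p = 0.0275), but rho was 0.709 (adjusted p = 0.154, exact permutation) and r without CM mice 2 and 3 was 0.592. Since same-numbered mice deviated together, the numbers of both genotypes were also permuted jointly, a test added after seeing the data whose smallest p is 0.00833. All 4 correlations were at that p, and none passed after adjustment (exact permutation adjusted p = 0.075).

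The LXRα gene ran the other way from Abca1 (r -0.847, rho -0.685), short of the threshold after adjustment (exact permutation adjusted p = 0.0612 and 0.154). No correlation of Pltp with another member passed adjustment, with r between -0.683 (Srebf1) and 0.439 (Nr1h3) and exact permutation adjusted p of at least 0.205. Within the 6 females the r of Pltp was -0.884 with Srebf2, -0.836 with Abcg1, -0.821 with Srebf1, -0.813 with Nr1h2 and 0.761 with Nr1h3. CM mice 2 and 3 are both among these females. Over the mice of both sexes without CM mice 2 and 3, the r of Pltp with the same genes was -0.04, 0.207, -0.195, 0.349 and -0.01. Each member's median r with 12274 expressed genes was near 0, from -0.04 (Nr1h2) to 0.02 (Srebf1). Positive and negative r cancel in such a median, so it does not show how unusual a high r is. The 5 genes whose deviations were most like those of Pltp, of the 12274, were Akr1b10 (r 0.932), Itgam (0.91), Yy2 (0.897), Stx11 (0.884) and Rnf170 (0.88). CM mouse 3, the highest for Pltp, weighs heavily on such values with 10 libraries, and they are given without a test.

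**Figure D4:**
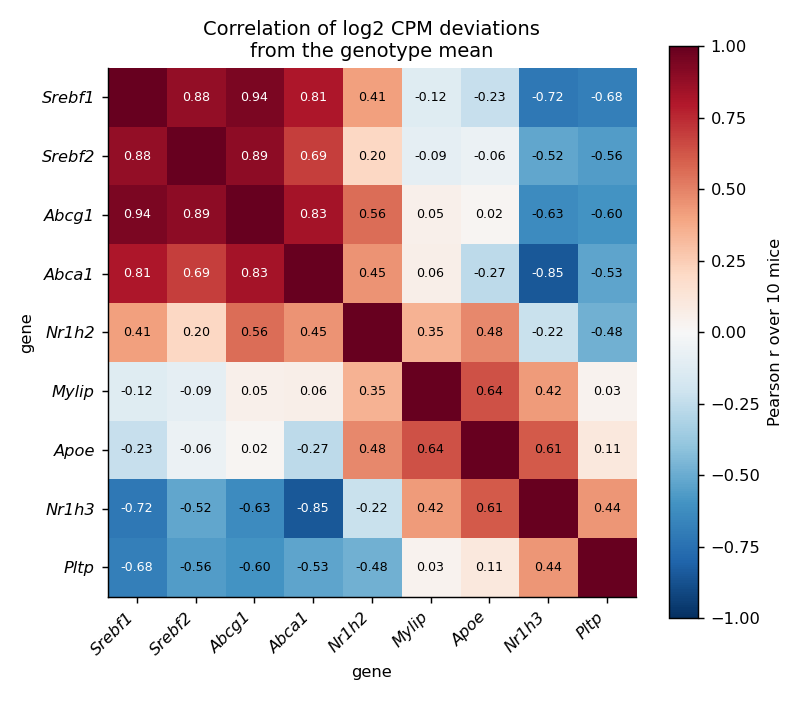
Pearson correlation over 10 mice between the 9 genes, each taken as the log2 CPM deviation from its genotype mean (color from -1 in blue to 1 in red). Srebf1, Srebf2, Abcg1 and Abca1 form a block of positive values (0.69 to 0.94), and Nr1h3 and Pltp are negative with all 4.

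Promoters were searched for the elements that these regulators bind. RefSeq start sites (GRCm38.p6, 250 bases before to 50 after the start) were at hand for 8 of the 9 genes, not for Abcg1. An LXR element of the DR4 type was sought as 2 copies of AGGTCA with 4 bases between them, on both strands and with at most 3 mismatches, a loose match that 21.9% of 32544 promoter windows held. It was found in Abca1 and Srebf1, in both on the strand opposite to the gene, and the 12 bases aligned to the 2 copies, of which 9 match, are in capitals.
Abca1, chr4:53159939-53159970, minus strand, site at -67 from the start: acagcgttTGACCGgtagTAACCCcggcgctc
Srebf1, chr11:60210630-60210661, minus strand, site at -182 from the start: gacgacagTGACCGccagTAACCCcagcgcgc
The letters in capitals were the same in both genes. The sterol regulatory element TCACCCCAC, on both strands with at most 1 mismatch, was in 9.88% of windows and in those of Nr1h3, Apoe, Mylip and Srebf2. That of Srebf2, the SREBP gene itself, is shown with the match in capitals.
Srebf2, chr15:82147099-82147123, plus strand, site at -162 from the start: acgcaccaTCACCCCATgagccgct
Neither pattern was in the windows of Pltp and Nr1h2, which says only that these letters are not there.

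Markers of the sorted cells and of others were counted beside these results. The 10 LSK markers summed to 3080 to 3600 CPM for CM and 2930 to 3610 CPM for CM/miR-126Δ/Δ. Of these, 2 had an unadjusted p under 0.05 in the edgeR fit. The 15 macrophage markers all had counts, summing to 106 to 463 CPM for CM (median 342) and 185 to 320 CPM for CM/miR-126Δ/Δ (median 245), and 2 of them had an unadjusted p under 0.05. In bulk RNA, fewer cells of a type cannot be told from less RNA per cell. Neutrophil markers were at 16.5 to 208 CPM for CM and 20.5 to 417 CPM for CM/miR-126Δ/Δ, the highest in CM/miR-126Δ/Δ mouse 4. Stromal markers summed to 100 to 147 and 102 to 144 CPM, endothelial to 98.2 to 131 and 74.6 to 131 CPM, and mast cell and basophil markers to 135 to 291 and 135 to 276 CPM in CM and CM/miR-126Δ/Δ, respectively. Erythroid (26.1 to 185 and 58.5 to 138 CPM), megakaryocyte (180 to 266 and 144 to 240 CPM), B cell (33.0 to 54.8 and 25.6 to 49.1 CPM) and T and NK cell markers (41.9 to 74.0 and 47.9 to 70.3 CPM) overlapped as well. Single genes made up much of some of these sums. Over all mice Pdgfrb of the stromal list was at 91.8 to 142 CPM. Nkg7 of the T and NK cell list was at 35.3 to 65.7 CPM and Cd79b of the B cell list at 20.3 to 27.6 CPM. The stromal markers Lepr, Col1a1, Col3a1, Pdgfra, Dcn, Lum and Adipoq were each under 1 CPM in every mouse. Beyond the LSK and macrophage lists only 1 marker, an endothelial one, had an unadjusted p under 0.05. Of all genes 6.61% had such a p. Hba-a1, Hba-a2, Hbb-bt, Gp6 and Tpsab1 were at 0 in all libraries.

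Nr1h3 ranked with the macrophage markers across mice. CM mouse 2, with 0.33 CPM of Nr1h3, had 0.793 CPM of C1qa, 0.76 CPM of Cd5l and 1.35 CPM of Vcam1, where the other 9 mice had 5.39 to 22.5, 6.34 to 27.0 and 18.6 to 67.6 CPM. C1qa encodes a complement subunit, Cd5l a protein secreted by macrophages and VCAM1 an adhesion molecule of marrow macrophages and stroma. Not every marker of the list followed. Csf1r was at 65.4 CPM in CM mouse 2, above CM/miR-126Δ/Δ mice 1 (48.1 CPM) and 2 (61.1 CPM). Cd68 was at 15.2 CPM, against 14.9 CPM in CM mouse 1 and 14.0 CPM in CM/miR-126Δ/Δ mouse 1. Over the deviations of the 10 mice, Nr1h3 and the summed markers gave r of 0.891 (exact permutation adjusted p = 0.0653 over 9 members) and rho of 0.83 (exact permutation adjusted p = 0.0453). Without CM mouse 2 and CM/miR-126Δ/Δ mouse 1, r was 0.716, and within the 6 females, which include both of these mice, 0.881. Abcg1 (rho -0.83, exact permutation adjusted p = 0.0431) and Srebf1 (rho -0.758, exact permutation adjusted p = 0.0456) ran against the markers, with r of -0.757 and -0.787 (exact permutation adjusted p = 0.0653 for both). Without the same 2 mice their r was -0.538 and -0.605, and within the females -0.903 and -0.904. With numbers permuted jointly the exact permutation adjusted p was 0.15 for all 3 genes, in r and in rho.

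For Pltp the markers gave r of 0.436 and rho of 0.248 (exact permutation adjusted p = 0.417 and 0.533), with r of 0.778 within the 6 females and 0.249 without the same 2 mice. CM mouse 2, the lowest of the 10 mice for the macrophage sum at 106 CPM, had 1.95 CPM of Pltp, above each CM/miR-126Δ/Δ mouse (1.03 to 1.56 CPM at sums of 185 to 320). CM mouse 4, the highest at 463 CPM, had 2.08 CPM. The 4 other CM sums, 334 to 463, were all above those of CM/miR-126Δ/Δ, and their part in the Pltp difference was not tested. For Apoe, a macrophage product as well, r with the markers was 0.31 and rho 0.394 (exact permutation adjusted p = 0.417 and 0.318).

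**Figure D5:**
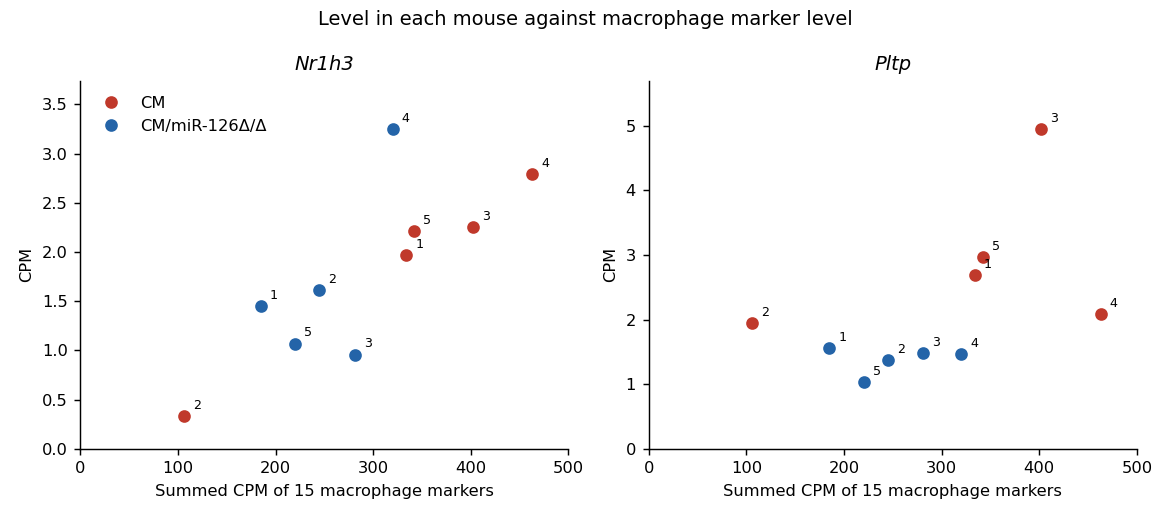
CPM of Nr1h3 (left) and Pltp (right) in each mouse, numbered by replicate, against the summed CPM of 15 macrophage markers, CM in red and CM/miR-126Δ/Δ in blue. CM mouse 2 is lowest on both axes for Nr1h3 (0.33 CPM at 106) and above every CM/miR-126Δ/Δ mouse for Pltp (1.95 CPM).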

How the data were processed

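Marrow LSK cells of 10 mice, 5 per genotype, were sorted after lineage depletion, and total RNA was made into rRNA-depleted stranded libraries (1 per mouse). Per the submitters' notes and methods, the authors trimmed reads with Trimmomatic and FASTP, aligned them to mm10 with TopHat2 and used HTSeq 0.6.1p1 to count reads per RefSeq gene. The deposited counts are raw whole numbers per gene. A normalized table of the authors was not used.

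Counts were fitted with edgeR 4.0.16 (TMM, quasi-likelihood F-test in its older form, genotype as the only term) on 18747 genes with at least 1 count, with two-sided p-values adjusted by Benjamini-Hochberg over all of them. CPM are counts per 1000000 with TMM factors, RPKM divide them by the exon length in the table, and log2 CPM used a prior count of 2 and log2 RPKM a pseudocount of 0.1. Tests were tried on simulated data first. Alternatives were DESeq2 1.42.0, RLE factors, filterByExpr, the newer quasi-likelihood form, a replicate block, sex as a covariate, counts without Rn45s, no requirement on RPKM, and leaving out each library. Jointly permuted replicate numbers were added after seeing the data. Sex was read from Xist against Ddx3y, Eif2s3y, Kdm5d and Uty. Groups and replicate numbers came from the titles. Same-numbered mice deviated together in all 5 pairs (r 0.15 to 0.469), so pairing by number was tried as an alternative. The main fit and its p-values did not pair the samples. The labels do not say what a number stands for. Named genes are the 9 members, for each pathway list the most abundant gene per length and the one of lowest p in each direction, the 2 nearest genes on each side of Pltp and the 5 most like it. Members and lists were chosen with earlier results of these data known. 3′ untranslated regions were taken from GENCODE transcripts for their sequence alone. The depth, 23649233 to 33202086 counts, puts 3 counts at 0.0904 to 0.127 CPM. Count intervals cover counting error only. The p-values of genotype differences weigh a difference against the spread between mice. Some genes that this rule names are not reported here.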

Additional observations from a re-analysis of the deposited data

Results flagged for a closer look

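Single mice stood far from the other 4 of their group in 10 of 90 groups examined, where 4.5 would be expected by chance at 1 in 20. Among the members this was Nr1h3, at 3.25 CPM in CM/miR-126Δ/Δ mouse 4 against 0.958 to 1.61 CPM in the others. The same mouse had the highest neutrophil markers of its group (417 CPM against 20.5 to 40.1), the lowest LSK markers (2930 CPM against 3540 to 3610) and the lowest Elovl6 (79.7 CPM against 97.1 to 101). CM mouse 5 had the highest neutrophil markers of the CM mice (208 CPM against 16.5 to 63.2). CM mouse 3, the highest for Pltp, was also far from the others for Abcb4 (38.1 CPM against 17.9 to 22.9) and for Rnf170 (10.9 CPM against 8.33 to 8.68), which was named for its likeness to Pltp, so that this is no separate observation. The remaining 3 rest on a handful of counts, Bpi at 0.165 CPM in CM mouse 2 and Lrp2 at 0.0409 CPM in CM mouse 3 and 0.161 CPM in CM/miR-126Δ/Δ mouse 2. No difference of the genotype effect between sexes was found for a member.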

How the results depend on the processing

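None of the 8 members other than Pltp met the 3 cutoffs under any alternative run. Pltp, chosen by this contrast, had log2 fold changes of -1.08 to -1.01 and, leaving out single libraries, -1.19 to -0.80. With the replicate block the genes that met the cutoffs rose from 54 to 115. Those with an adjusted p under 0.05 rose from 2 to 20. In that fit no call of a member changed. Tests that keep same-numbered mice together left Mir126a (difference -0.0905 CPM, exact p = 0.125) short of 0.05. The same held for the 4 correlations between members (exact permutation adjusted p = 0.075). The unadjusted p of each was the smallest its test can give, so no conclusion on pairing is drawn. The rank correlations of Nr1h3, Abcg1 and Srebf1 with the macrophage markers also fell short (exact permutation adjusted p = 0.15). Without the requirement on RPKM 111 genes met the cutoffs. Adjusted p under 0.05 was reached by 45 genes with DESeq2 and by 4 with filterByExpr or with sex as a covariate, and the genotype by sex term by 8 with DESeq2 and 0 with filterByExpr. Without single libraries the counts ran from 33 to 128, 1 to 7 and 0 to 4. The first was 128 without CM mouse 3, 85, 94 and 33 without CM/miR-126Δ/Δ mice 1, 4 and 5. Signs turned for Zfp335 (0.000530 with RLE, 0.000674 with DESeq2, 0.00911 with filterByExpr) and without single libraries for Zfp335 (log2 fold changes of -0.03725 to 0.04842), Pcif1 (-0.03269 to 0.05877), Akr1b10 (-0.02682 to 0.1047), Abcg1 (-0.1308 to 0.05066), Srebf1 (-0.02276 to 0.1029) and Srebf2 (-0.004562 to 0.1219). The cause was not tested. Low counts limit Pltp and Nr1h3 (10 to 121 per library), and strand use in counting is unknown.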
